A study of Homo sapiens with 18 samples.

Results

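Antisense long non-coding RNA genes are named after the protein-coding gene on the other DNA strand whose body or start they face, with the ending -AS and a number. Of 14079 gene symbols with tags in the deposited gene table, 321 carry such a name. The 3 antisense symbols of the HOX clusters were left out, and 120 others had under 30 tags summed over the 18 libraries. The remaining 198 genes are described here, and each was set beside its sense gene, for which a row was listed in 169 cases. They were selected on their name and on total tags over all libraries. The rule used no contrast, but a weak gene can reach the total through the group where it is high, so counts over the members are given beside the same over all genes. Just inside the limit lay SEC24B-AS1 with 30 tags and EXOSC10-AS1 with 31. Just outside lay STX18-AS1, RPL34-AS1 and RBM26-AS1 with 29 each.

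Tags were counted by cap analysis of gene expression (CAGE), in which short reads from the capped 5′ ends of RNA mark where transcription starts and on which strand. The cells were 2 human acute myeloid leukaemia lines, labelled AML2 and AML3 and headed OCI-AML2 and OCI-AML3 in the table. Each line had 3 libraries with vehicle (DMSO), 3 with JQ1 and 3 with OTX015, which makes 6 groups of 3. JQ1 and OTX015 block the bromodomains of the BET proteins, with which these proteins read acetylated histones. They share a thienotriazolodiazepine core, which carries a tert-butyl ester in JQ1 and a hydroxyphenyl amide in OTX015. The labels give no dose, no time of treatment and no genotype. Each line is a single established line, so a difference between AML2 and AML3 is a difference between these lines and not between classes of leukaemia.

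As background, many active promoters in human cells fire in both directions, and the RNA that leaves against the gene is often short, capped and quickly degraded. Some of these RNAs are spliced, polyadenylated and stable enough to be annotated as genes. A few antisense RNAs are known to act on the gene they face, as CDKN2B-AS1 (ANRIL) is known for at the CDKN2A and CDKN2B locus, whereas for most no function is known.

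GENCODE release 29 (GRCh38) placed 191 of the 198 together with their sense gene. In 93 of these the 2 genes stood head to head with transcript starts within 1000 bases of each other and pointed away from each other. In 38 more the starts were equally close but the first parts overlapped, and in 60 the genes overlapped with starts further apart. The median distance between the nearest starts was 176 bases. GENCODE called 138 of the genes antisense, 28 processed transcripts and 21 long intergenic RNAs. The strand behind the counts could be checked where 1 promoter had the same counts as the gene in all 18 libraries. This held for 45 of the 167 genes with at least 50 tags, and the promoter lay on the annotated strand of the antisense gene in 44. The exception was LIX1L-AS1, whose matching promoter was named on the other strand. The matching promoters carry hg19 coordinates and the annotation is GRCh38. Whether the strand of that region differs between the builds was not checked.

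The start regions of 4 antisense genes are printed because the results turn on them: 2 that rose with both compounds in both lines (SLC9A3-AS1 and INTS6-AS1), 1 that rose where its sense gene fell (COA6-AS1) and 1 that fell (ELFN1-AS1). Each runs 5′ to 3′ on the strand of the antisense gene, from 250 bases before its RefSeq start to 50 after it, and comes from RefSeq (GRCh38.p14). Capitals mark the E-box CACGTG, the sequence that MYC and related factors bind, the CCAAT box, the TATA box TATAAA and the GC box GGGCGG, each searched on both strands. SLC9A3-AS1 lies at chr5:472986-473285 (plus strand), INTS6-AS1 at chr13:51453095-51453394 (plus), COA6-AS1 at chr1:234373354-234373653 (minus) and ELFN1-AS1 at chr7:1742261-1742560 (minus).
SLC9A3-AS1: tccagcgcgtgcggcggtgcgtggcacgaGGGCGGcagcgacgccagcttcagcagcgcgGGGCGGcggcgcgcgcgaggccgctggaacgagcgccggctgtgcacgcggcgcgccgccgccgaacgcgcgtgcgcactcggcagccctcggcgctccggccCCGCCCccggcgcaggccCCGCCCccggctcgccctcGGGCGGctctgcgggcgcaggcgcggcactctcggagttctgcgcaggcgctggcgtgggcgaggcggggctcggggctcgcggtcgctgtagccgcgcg
INTS6-AS1: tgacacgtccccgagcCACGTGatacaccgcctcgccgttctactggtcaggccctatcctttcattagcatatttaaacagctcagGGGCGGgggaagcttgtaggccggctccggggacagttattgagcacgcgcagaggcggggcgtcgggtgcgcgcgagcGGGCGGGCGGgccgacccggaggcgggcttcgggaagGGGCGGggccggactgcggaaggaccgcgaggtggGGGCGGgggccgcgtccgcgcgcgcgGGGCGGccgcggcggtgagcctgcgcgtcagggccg
COA6-AS1: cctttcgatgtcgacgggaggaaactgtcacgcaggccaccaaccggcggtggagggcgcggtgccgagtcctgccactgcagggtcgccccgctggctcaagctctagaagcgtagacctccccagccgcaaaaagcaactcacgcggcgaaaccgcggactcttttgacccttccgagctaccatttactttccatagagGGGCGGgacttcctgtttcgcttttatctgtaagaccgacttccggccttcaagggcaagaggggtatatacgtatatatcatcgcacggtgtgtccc
ELFN1-AS1: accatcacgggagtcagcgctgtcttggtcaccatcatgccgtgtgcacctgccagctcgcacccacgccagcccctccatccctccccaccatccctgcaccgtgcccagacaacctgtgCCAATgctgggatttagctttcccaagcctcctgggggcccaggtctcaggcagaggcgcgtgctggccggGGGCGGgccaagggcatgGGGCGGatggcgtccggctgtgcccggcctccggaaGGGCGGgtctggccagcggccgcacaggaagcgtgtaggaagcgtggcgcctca
The window of INTS6-AS1 shares 192 bases with that of INTS6, and the window of COA6-AS1 shares 221 bases with that of COA6, each read from the other strand. The INTS6-AS1 window holds 1 E-box and 6 GC boxes, 2 of which overlap. SLC9A3-AS1 has 5 GC boxes, COA6-AS1 has 1, and ELFN1-AS1 has 3 with 1 CCAAT box.

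Over all 144 of the 198 genes with such a RefSeq window, 71.5% held a GC box, against 73.9% of 142 sense gene windows and 45% of all 35116 windows in the RefSeq table. A TATA box was found in 2.08% of the antisense windows, 4.93% of the sense windows and 11.5% of all windows. The median antisense window held 27 CG pairs, as did the median sense window, against 14 over all windows. The E-box was in 10.4% of the antisense windows, 7.75% of the sense windows and 7.26% of all, and the CCAAT box in 36.1%, 36.6% and 34.6%. These shares describe letters in a window of 300 bases and do not show that a factor binds there.

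The libraries held 303883 to 2163106 gene tags, and those numbered 3 were the shallowest of each group. Of the 12 markers of myeloid leukaemia cells looked up, 11 were listed (all but MPO). With vehicle, ITGAM and CD14, markers of mature myeloid cells, stood near 0, and CSF1R stood at 7.42 CPM in AML2 and 7.9 in AML3. ELANE stood at 6.95 CPM in AML2 and 447 in AML3, and AZU1 at 1240 and 402. PTPRC, CD33, SPI1, CEBPA, LYZ and CTSG stood at 67.4 CPM or more in both lines. Of 12 markers of other cell types, 10 were not listed, CD79A was near 0, and the endothelial and leukocyte adhesion gene PECAM1 had tags in 18 libraries. Both summed levels moved with the compounds. The myeloid sum was 3210 to 4590 CPM in AML2 with vehicle and 1840 to 2510 with either compound, and 4840 to 6030 CPM in AML3 with vehicle and 528 to 828 with either compound. The sum of CD79A and PECAM1 was 28.1 to 36.2 CPM in AML2 with vehicle and 65.3 to 204 with either compound, and 10.6 to 31.2 CPM in AML3 with vehicle and 4.31 to 14.8 with either compound. Levels in CPM are tag counts scaled to a common library size with TMM factors.

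The antisense genes were weakly expressed. Their mean level over the libraries ran from 1.57 to 222 CPM with a median of 6.45, against 25.4 for their sense genes and 28.6 for the 10031 genes that passed a filter on low counts. Of the 198, 115 passed that filter and 83 did not. The most abundant were SLC9A3-AS1 (3041 tags in all), OIP5-AS1 (2839), EPB41L4A-AS1 (2787), FGD5-AS1 (1127) and PSMA3-AS1 (876), followed by GABPB1-AS1, OTUD6B-AS1, CDKN2B-AS1, ITGB2-AS1 and THUMPD3-AS1. OIP5-AS1 is the human form of the conserved RNA known as Cyrano. It stood at 208 ± 11.3 CPM (SD, n = 3) in AML2 with vehicle and 155 ± 19.7 in AML3. None of its changes with a compound passed the test, which does not show that its level was constant. FGD5-AS1 had group means between 56.2 and 76 CPM.

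AML3 and AML2 differed in a minority of antisense genes. With vehicle, 17 of the 115 tested were higher in AML3 and 15 lower, at an adjusted p under 0.05 in edgeR's quasi-likelihood test. Over all 10031 genes tested, 11.4% were higher and 11.7% lower, so the antisense shares of 14.8% and 13% were close to the background. In the fit without a filter, 24 of the 198 were higher and 26 lower, or 12.1% and 13.1%. Over all genes, which had no tag minimum, the shares were 9.89% and 10.3%. The median change was -0.00 on the log2 scale, against -0.04 for all genes. Scaled by library totals alone, without TMM, the split was 16 higher and 9 lower.

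The largest line differences were between presence and absence. MKX-AS1 stands opposite MKX, the gene of the homeobox factor Mohawk. It had 0 tags in all 9 AML2 libraries and stood at 23.5, 15.6 and 18.4 CPM in AML3 with vehicle. This makes it at least 25.3-fold higher in AML3, taking 3 tags in the AML2 group as the floor. MKX itself had the same pattern, with 0 tags in AML2 and 48.2 ± 8.15 CPM in AML3. DLEU7-AS1 was also without a tag in AML2, and was at least 9.98-fold higher in AML3 with vehicle, at 5.86, 10.4 and 8.51 CPM. The reverse held for C5orf66-AS1, with 20.2, 29.3 and 16.6 CPM in AML2 with vehicle, no tag in any of the 9 AML3 libraries and a level at least 28.4-fold lower there. EPHA1-AS1 had tags only in AML2, and FOXD3-AS1 and TNFRSF14-AS1 had tags only in AML3. Floors and counting intervals here cover counting error only.

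SOCS2-AS1 and MEF2C-AS1 followed their sense genes across the lines. SOCS2 is a cytokine-induced suppressor of JAK-STAT signalling. SOCS2-AS1 stood at 18.5, 17.4 and 1.28 CPM in AML2 with vehicle, with 55 tags, and had 1 tag in the AML3 vehicle group. The ratio was 51.4 with a 95% counting interval of 8.86 to 2070, and the adjusted p was 8.62e-05. The replicate 3 library of AML2 was far below the other 2, and SOCS2 showed the same split, at 162, 175 and 46 CPM in AML2 against 3.38 ± 1.89 in AML3. MEF2C-AS1 faces the gene of the transcription factor MEF2C. It had 78 tags in AML2 with vehicle and 2 in AML3, a ratio of 36.5 (interval 9.77 to 307), while MEF2C was lower in AML3 by a smaller step, 18.5 ± 5.12 against 61.7 ± 4.92 CPM.

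The members of 2 pairs went opposite ways between the lines. GABPB1 encodes a subunit of the GA-binding protein. GABPB1-AS1 was higher in AML3, at 46.9, 54.5 and 35.5 CPM against 31.2, 16.3 and 14.1 in AML2, while GABPB1 was lower, at 14.8 ± 0.708 against 33.7 ± 9.75. The log2 changes were 1.16 ± 0.33 (SE, adjusted p = 0.00978) and -1.14 ± 0.29 (0.00523). The call for GABPB1-AS1 was lost without replicate 2 of AML2 vehicle (adjusted p = 0.0798) or of AML3 vehicle (0.0553). ATE1-AS1, opposite the arginyltransferase gene ATE1, also rose against its sense gene, from 0.426 to 2.59 CPM, but its adjusted p of 0.0412 lay between 0.0684 and 0.204 when any one of 5 of the 6 vehicle libraries was left out (all but replicate 3 of AML2).

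In AML3 the antisense genes rose far more often than they fell with either compound. With JQ1, 58 of the 115 tested were higher and 6 lower, where 26.8% of all genes tested were higher and 24.1% lower. With OTX015, 58 were higher and 5 lower, against 28.8% and 26.1% of all genes. The median change was 1.02 with JQ1 and 0.98 with OTX015 on the log2 scale, against 0.04 and 0.03 for all genes. JQ1 and OTX015 were compared with the same vehicle libraries, so the 2 counts are not independent of each other. Without the libraries numbered 3 the counts were 57 higher and 6 lower with JQ1, and 57 higher and 8 lower with OTX015. Without replicate 3 of OTX015 alone, 53 were higher and 8 lower. Scaled by library totals, 68 were higher and 4 lower with JQ1, and 66 higher and 1 lower with OTX015.

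A filter on low counts keeps a weak gene more readily where it is high in 1 group, so the test was also run with no filter over all 198. The 198 still passed the minimum of 30 tags, whereas the 14079 genes include those with fewer. In such genes only a large change can be called, so the no-filter shares are not of like sets. There 75 were higher with JQ1 (37.9%, against 20.6% of all 14079 genes) and 11 lower (5.56%, against 18.2%). With OTX015, 76 were higher (38.4%, against 22.7%) and 9 lower (4.55%, against 19.9%). Weakly expressed genes as a whole rose more than they fell in AML3, and a larger share of the antisense genes rose. For this, genes tested were split by their mean level over all 18 libraries. That mean includes the treated libraries, so a gene that rises can move itself to a higher level class. The shares are therefore not of genes matched on their vehicle level. Among genes tested with a mean under 50 CPM, 30% of all genes were higher with JQ1 and 17% lower, against 50.5% and 5.5% of the antisense genes. With OTX015 the shares were 32.4% and 18.1% of all genes and 50.5% and 4.59% of the antisense genes. The gap was smaller under 10 CPM, where 46% of the antisense genes were higher with JQ1 and 44% with OTX015. There 30.9% and 33% of all genes were higher. From 10 to 50 CPM the shares were 54.2% and 55.9%, against 29.8% and 32.3%. Genes of 50 CPM or more went the other way, with 19.3% higher and 40.4% lower with JQ1, and only 6 antisense genes were that abundant.

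**Figure D1:**
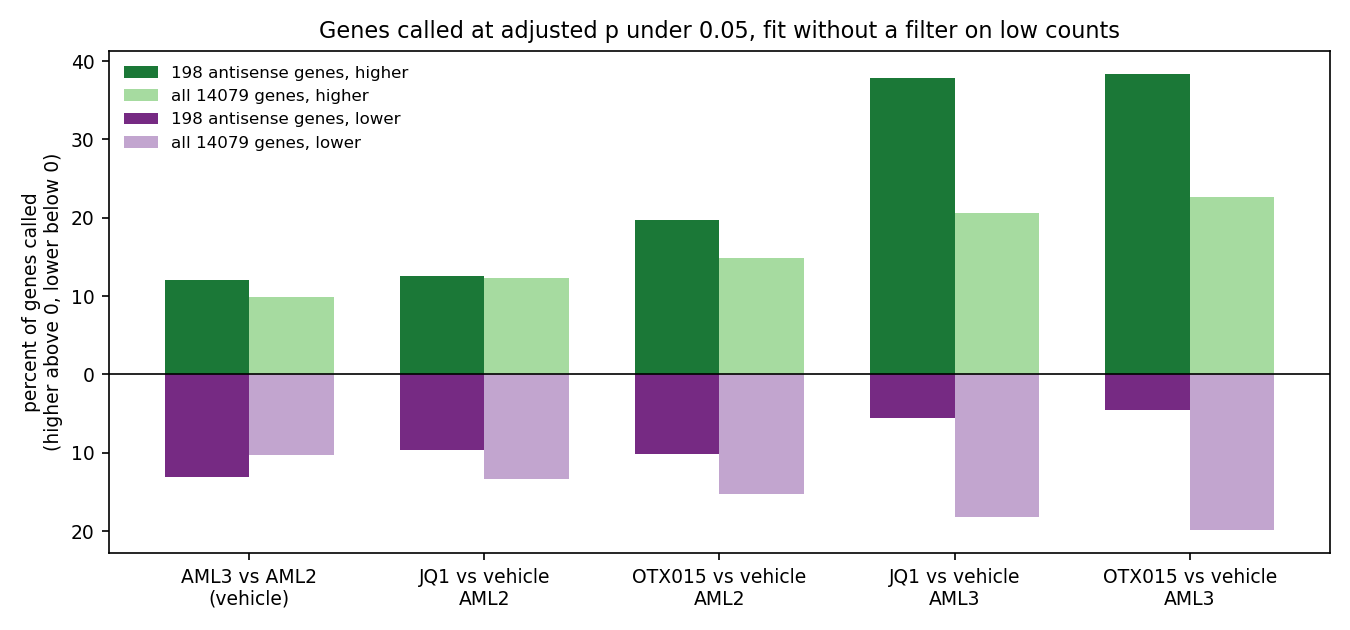
Percent of genes called higher (bars above 0) or lower (bars below 0) at an adjusted p under 0.05 in each comparison, in the fit without a filter, for the 198 antisense genes (dark) and all 14079 genes (light). Unlike the 198, the 14079 genes had no tag minimum. In AML3, 37.9% and 38.4% of the antisense genes were higher against 20.6% and 22.7% of all genes, whereas in AML2 with JQ1 the shares were 12.6% and 12.3%.

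In AML2 the shift was small and in part within the background. With JQ1, 26 of the 115 tested were higher and 10 lower, against 17.2% and 17.4% of all genes, and with OTX015 33 were higher and 9 lower, against 20.5% and 19.9%. The medians were 0.34 and 0.41. Among tested genes under 10 CPM, by the same mean that includes treated libraries, 12% of the antisense genes were higher with JQ1 and 16% with OTX015. This was close to the 11% and 16.5% of all genes. From 10 to 50 CPM the shares were 30.5% and 39%, against 17.6% and 20.9%. Without replicate 1 of AML2 vehicle the JQ1 counts were 20 and 6. With no filter, 25 of the 198 were higher with JQ1, 12.6% against 12.3% of all genes, and 19 lower, 9.6% against 13.3%. With OTX015, 39 were higher, 19.7% against 14.8%, and 20 lower, 10.1% against 15.2%.

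The share of a library's gene tags that fell in the 198 genes was higher with the compounds in both lines. In AML2 the vehicle libraries had 0.132% to 0.166%, the JQ1 libraries 0.179% to 0.199% and the OTX015 libraries 0.19% to 0.239%. In AML3 the share was 0.154% to 0.162% with vehicle, 0.319%, 0.331% and 0.585% with JQ1 and 0.36%, 0.361% and 0.601% with OTX015. No compound library overlapped the vehicle libraries of its line, and the 2 AML3 compound libraries numbered 3 stood well above the rest. Those 2 libraries had the fewest gene tags, 378794 and 303883, and the highest TMM factors, 1.4873 and 1.5538. On the TMM scale the summed level of all 198 genes in AML3 was 1707 to 1792 CPM in the vehicle libraries, 2909 to 3995 in the JQ1 libraries and 3078 to 3935 in the OTX015 libraries. In AML2 the vehicle libraries had 1618 to 2164 CPM, the JQ1 libraries 2006 to 2080 and the OTX015 libraries 2163 to 2278, so there the groups overlapped. Without the 3 most abundant genes the AML2 libraries no longer overlapped, at 1209 to 1557 CPM with vehicle and 1624 to 1927 with either compound. In AML3 that sum was 1371 to 1417 and 2291 to 3002. The genes left out were OIP5-AS1, SLC9A3-AS1, which rose in AML2, and EPB41L4A-AS1, which fell there. The separation in AML2 on this scale thus depends on leaving them out.

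The nuclear RNA MALAT1 moved with this share, from 0.102% to 0.291% of gene tags with vehicle to 1.41% to 3.16% with a compound in AML2 and 5.35% to 6.75% in AML3. The summed markers described above moved with it too. Their part in the antisense changes was not tested.

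**Figure D2:**
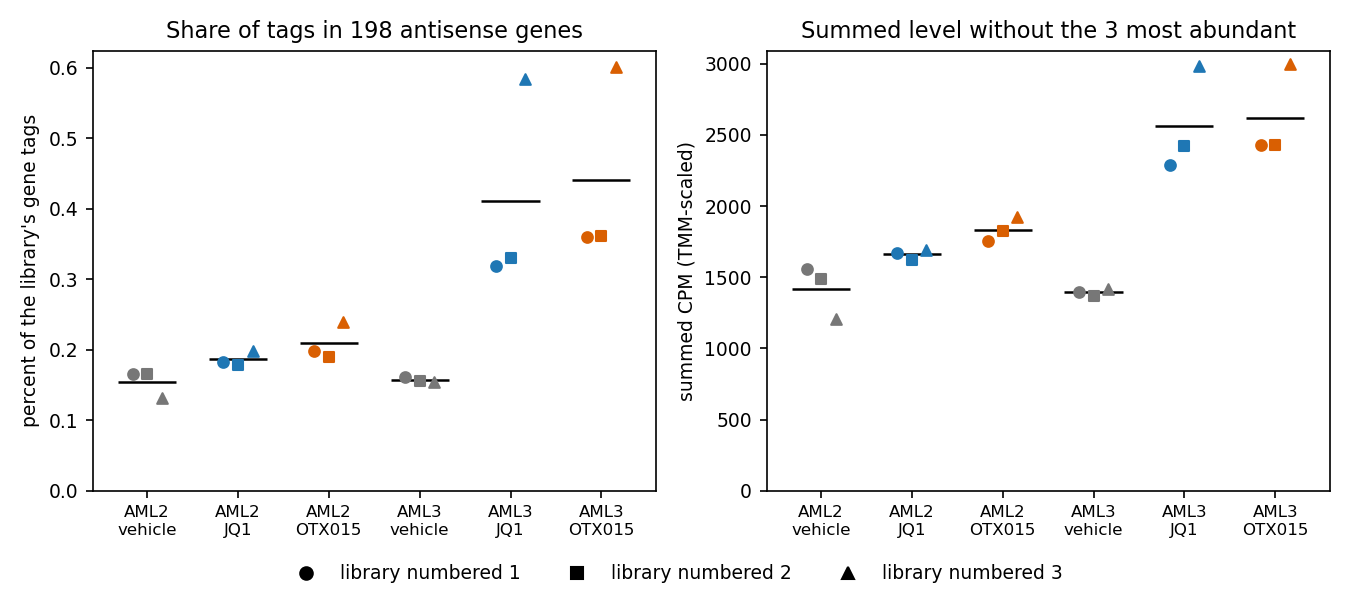
Left, percent of each library's gene tags in the 198 antisense genes; right, their summed level in CPM without SLC9A3-AS1, OIP5-AS1 and EPB41L4A-AS1. Points are libraries (shape gives the replicate number), lines are group means, and the AML3 compound libraries lie at 0.319% to 0.601% against 0.154% to 0.162% with vehicle. With all 198 genes the summed levels of vehicle and compound libraries overlapped in AML2.

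The rise was seen both in genes that stood head to head with their sense gene and in the others placed. With JQ1 in AML3, 31 of the 55 tested were higher and 2 lower, against 26 and 4 of 58, and with OTX015 29 and 2 against 28 and 3. The difference between these groups was not tested. Of 56 symbols ending in -IT, -OT or -DT, for intronic, overlapping and divergent RNAs, 17 passed the filter. Of these, 13 were higher and 0 lower with JQ1 in AML3, and 11 and 0 with OTX015. Over all genes tested there, 26.8% were higher and 24.1% lower with JQ1, and 28.8% and 26.1% with OTX015. The -IT, -OT and -DT symbols were not counted in the fit without a filter. Tags per gene cannot tell more starts in each cell from a larger share of cells that use the gene.

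The most abundant riser was SLC9A3-AS1, which overlaps SLC9A3, the gene of a sodium-proton exchanger that has no row of its own here. It stood at 5.9, 13 and 2.56 CPM in AML2 with vehicle, at 52.5, 85.5 and 104 with JQ1 and at 86.4, 69.7 and 143 with OTX015. In AML3 it went from 48.1, 59.7 and 48.2 with vehicle to 344, 385 and 846 with JQ1 and 451, 431 and 818 with OTX015. No treated library overlapped the vehicle libraries of its line, and AML3 with vehicle was already at the level of the lowest treated AML2 library. The log2 changes were 3.27 ± 0.47 (SE, adjusted p = 7.19e-06) and 3.56 ± 0.47 (1.75e-06) in AML2, and 3.32 ± 0.39 (2.63e-07) and 3.43 ± 0.39 (1.32e-07) in AML3, for JQ1 and OTX015 in turn. With vehicle it was higher in AML3 by 2.66 ± 0.47 (adjusted p = 0.000113).

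ITGB2-AS1 starts beside ITGB2, which encodes the shared beta chain of the leukocyte integrins. Its levels were 1.69, 1.63 and 8.94 CPM in AML2 with vehicle, 34.2, 33.5 and 45.9 with JQ1 and 43.2, 35.8 and 40 with OTX015. In AML3 they were 9.97, 13 and 25.5 with vehicle, 64.9, 66.6 and 106 with JQ1 and 63.3, 53.7 and 99.1 with OTX015. Again no treated library overlapped its vehicle group. The changes were 3.47 ± 0.46 (adjusted p = 3.03e-06) and 3.56 ± 0.46 (1.48e-06) in AML2 and 2.39 ± 0.33 (2.92e-06) and 2.24 ± 0.34 (7.3e-06) in AML3. ITGB2 rose with it, by 2.81 ± 0.3 and 2.64 ± 0.3 in AML2 and by 1.1 ± 0.28 and 0.92 ± 0.28 in AML3. The rise of ITGB2 was smaller in AML3, by -1.71 ± 0.39 for JQ1 (interaction, adjusted p = 0.00677) and by -1.72 ± 0.4 for OTX015 (0.00615), whereas for ITGB2-AS1 the same interactions were -1.08 and -1.32 and did not pass (0.332 and 0.204).

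INTS6-AS1 shares its start region with INTS6, a subunit of the Integrator complex that cleaves nascent RNA. It had 2.53, 5.42 and 3.83 CPM in AML2 with vehicle, 18.3, 15.9 and 30 with JQ1 and 25.7, 28.1 and 29.5 with OTX015. In AML3 the values were 2.35, 1.73 and 0 with vehicle, 22.2, 14.8 and 36.1 with JQ1 and 25.1, 28.5 and 47.4 with OTX015. The groups did not overlap in either line. The changes were 2.26 ± 0.44 (adjusted p = 0.000299) and 2.69 ± 0.43 (1.81e-05) in AML2 and 3.69 ± 0.52 (3.13e-06) and 4.16 ± 0.5 (2.68e-07) in AML3. INTS6 rose in all 4 comparisons too, from 28.1 ± 4.96 to 160 ± 94 and 269 ± 106 CPM in AML2 and from 19.1 ± 8.65 to 128 ± 67 and 116 ± 66.7 in AML3.

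RFX3-AS1 starts 719 bases from RFX3, the gene of a transcription factor of ciliated cells. It was at 5.9, 2.17 and 1.28 CPM in AML2 with vehicle, 17.1, 13.2 and 14.1 with JQ1 and 15.2, 17.4 and 31.6 with OTX015, and in AML3 at 4.1, 4.33 and 2.84, then 32, 31.7 and 52.3, and 45.9, 50.4 and 58.1. Every treated library was above its vehicle group. The changes were 2.18 ± 0.45 (adjusted p = 0.000536) and 2.61 ± 0.44 (3.78e-05) in AML2, and 3.21 ± 0.38 (3.29e-07) and 3.66 ± 0.37 (2.64e-08) in AML3. RFX3 itself passed the test in AML3, where it rose by 2.93 ± 0.52 and 2.9 ± 0.53, against 0.39 ± 0.45 and 0.36 ± 0.45 in AML2, and the difference between the lines passed the test (interaction, adjusted p = 0.0245 for JQ1 and 0.0246 for OTX015).

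**Figure D3:**
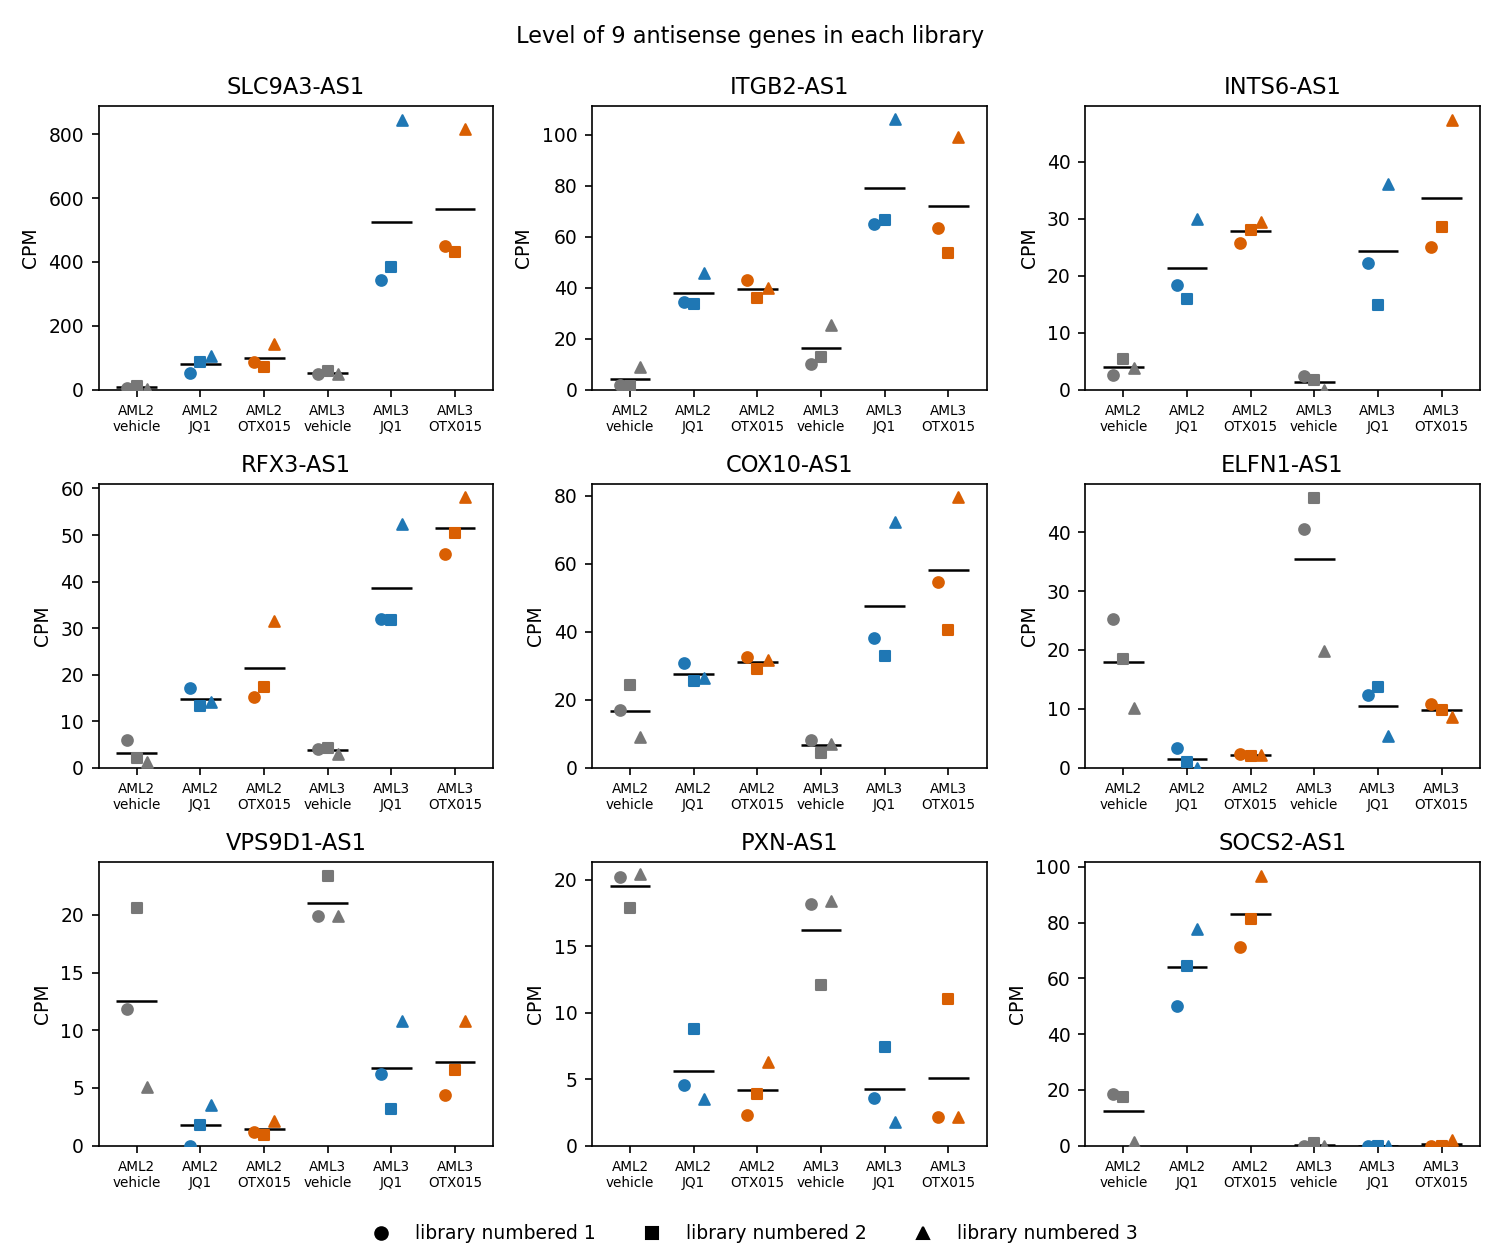
Level in CPM of 9 antisense genes in each of the 18 libraries, with linear axes that start at 0; points are libraries (shape gives the replicate number) and lines are means of 3. SLC9A3-AS1, ITGB2-AS1, INTS6-AS1 and RFX3-AS1 rose in both lines, ELFN1-AS1, VPS9D1-AS1 and PXN-AS1 fell in both, COX10-AS1 rose in AML3, and SOCS2-AS1 rose in AML2 and was nearly without tags in AML3.

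Other risers came from levels near 0. CBR3-AS1, named after a carbonyl reductase gene, had 2 tags in the AML2 vehicle group and 20 with JQ1, a ratio of 14.8 (95% counting interval 3.59 to 131), and 18 with OTX015, a ratio of 14.5 (3.47 to 129). In AML3 it rose by 2.9 ± 0.47 and 2.95 ± 0.48, from 2.32 ± 0.795 to 19.8 ± 4.6 and 20.7 ± 6.59 CPM. CBR3 itself did not pass in any of the 4 comparisons. ST7-AS1 rose in AML3, from 3 tags with vehicle to 37 with JQ1, a ratio of 16.8 (5.31 to 84.9), and to 48 with OTX015, a ratio of 24.9 (8.02 to 125). ATP2B1-AS1, opposite a plasma membrane calcium pump gene, had 0 tags in AML3 with vehicle and 26 with either compound, at least 11.8-fold and at least 13.5-fold higher.

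Genes that rose with JQ1 in both lines numbered 21, which was 80.8% of the 26 in AML2 and 36.2% of the 58 in AML3. With OTX015 there were 24, 72.7% of 33 and 41.4% of 58. They include SLC9A3-AS1, ITGB2-AS1, INTS6-AS1, RFX3-AS1, CBR3-AS1, PSMA3-AS1, A1BG-AS1 and PCBP1-AS1 for both compounds. Over all genes tested, 62.4% of those higher with JQ1 in AML2 were higher in AML3, or 40.1% of those in AML3, and with OTX015 67.7% and 48.1%. The antisense shares were thus above these in AML2 and below them in AML3, a difference that was not tested.

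The genes that fell were few, and 3 of them fell in all 4 comparisons. ELFN1-AS1 lies within ELFN1, a gene of a synaptic membrane protein with no row here. It stood at 25.3, 18.4 and 10.2 CPM in AML2 with vehicle, 3.42, 0.881 and 0 with JQ1 and 2.34, 1.93 and 2.11 with OTX015, and in AML3 at 40.5, 45.9 and 19.9, then 12.4, 13.7 and 5.41, and 10.9, 9.86 and 8.61. No treated library reached a vehicle library of its line. It fell by 3.48 ± 0.59 (adjusted p = 5.78e-05) and 3.06 ± 0.57 (0.000133) on the log2 scale in AML2 and by 1.7 ± 0.36 (0.000449) and 1.86 ± 0.38 (0.000249) in AML3.

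VPS9D1-AS1, also known as MYU and described as a target of MYC, fell with it. Its levels were 11.8, 20.6 and 5.11 CPM in AML2 with vehicle, 0, 1.76 and 3.53 with JQ1 and 1.17, 0.967 and 2.11 with OTX015, and in AML3 19.9, 23.4 and 19.9, then 6.22, 3.17 and 10.8, and 4.37, 6.57 and 10.8. The groups did not overlap. In AML2 it fell by 3.04 ± 0.65 with JQ1 (adjusted p = 0.000674) and from 56 tags to 3 with OTX015, a ratio of 11.6 (3.76 to 57.8), and in AML3 it fell by 1.75 ± 0.47 (0.00308) and 1.65 ± 0.47 (0.00495). PXN-AS1, opposite the focal adhesion gene paxillin, fell from 19.5 ± 1.41 to 5.64 ± 2.8 and 4.17 ± 2.01 CPM in AML2 and from 16.2 ± 3.58 to 4.25 ± 2.86 and 5.1 ± 5.07 in AML3. Its fall with OTX015 in AML3 (adjusted p = 0.00996) was lost without replicate 1 of that group (0.0883).

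RNASEH1-AS1 fell in both lines with JQ1, by 1.65 ± 0.45 (adjusted p = 0.0056) and 1.72 ± 0.39 (0.000828), and with OTX015 in AML3, by 1.3 ± 0.38 (0.00605). The abundant EPB41L4A-AS1 was at 392, 224 and 211 CPM in AML2 with vehicle, 159, 160 and 70.6 with JQ1 and 162, 144 and 82.1 with OTX015. It fell there by 1.06 ± 0.38 (adjusted p = 0.0318) and 1.07 ± 0.38 (0.0283). These calls rested on single libraries. Without replicate 1 of AML2 vehicle the adjusted p was 0.196 and 0.178, without replicate 3 of JQ1 it was 0.176, and for OTX015 it was 0.0536 without its replicate 2 and 0.122 without its replicate 3. In AML3, where EPB41L4A-AS1 had 156 ± 11.1 CPM with vehicle, its values of 96.6 ± 41.7 and 83.7 ± 54.5 with JQ1 and OTX015 did not pass.

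PSMB8-AS1 fell in AML2 together with PSMB8, a subunit of the immunoproteasome. It went from 21.9, 11.9 and 14.1 CPM to 6.85, 2.64 and 0 with JQ1 and 4.67, 5.8 and 4.21 with OTX015, a fall by 2.14 ± 0.49 (adjusted p = 0.0013) and 1.62 ± 0.46 (0.00685). PSMB8 fell by 1.9 ± 0.31 and 2.32 ± 0.32 there and by 1.56 ± 0.31 and 2.01 ± 0.33 in AML3. In AML3 the antisense changes were -0.64 ± 0.4 and -0.98 ± 0.43 and did not pass (0.18 and 0.0552).

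In AML3 most antisense genes had a more positive change than their sense gene, and many rose where the sense gene did not. In 86 pairs both genes were tested. With JQ1 in AML3, 48 antisense genes of these pairs were higher, and the sense gene was also higher in 17, lower in 7 and not called in 24. With OTX015 in AML3 the split of 47 was 19, 11 and 17. Over all 86 sense genes, 29 were higher and 13 lower with JQ1 (33.7% and 15.1%), and 34 and 21 with OTX015, so the sense genes of the risers were called about as often as all 86. In AML2 the 23 that rose with JQ1 split into 7, 3 and 13, and the 30 with OTX015 into 9, 6 and 15. Over all 86 sense genes there, 17 were higher and 12 lower with JQ1 (19.8% and 14%). With OTX015, 21 were higher and 16 lower (24.4% and 18.6%). The sense gene was thus lower about as often among the risers as among all 86. The antisense change exceeded the sense change in 61 of 86 pairs in AML3 for each compound, with a median difference of 1.11 and 1.21 on the log2 scale, and in 48 and 55 pairs in AML2, with 0.22 and 0.43. Between the lines with vehicle it did so in 47 pairs, with 0.06, close to the count for JQ1 in AML2. These counts were not tested.

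Across the 86 pairs, Pearson's r between the antisense and the sense log2 change was 0.66 for the difference between the lines. For JQ1 and OTX015 it was 0.26 and 0.12 in AML2 and 0.1 and 0.1 in AML3. Pairs are not independent replicates, both genes of a pair come from the same libraries, and antisense genes have few tags, so these values are descriptions.

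**Figure D4:**
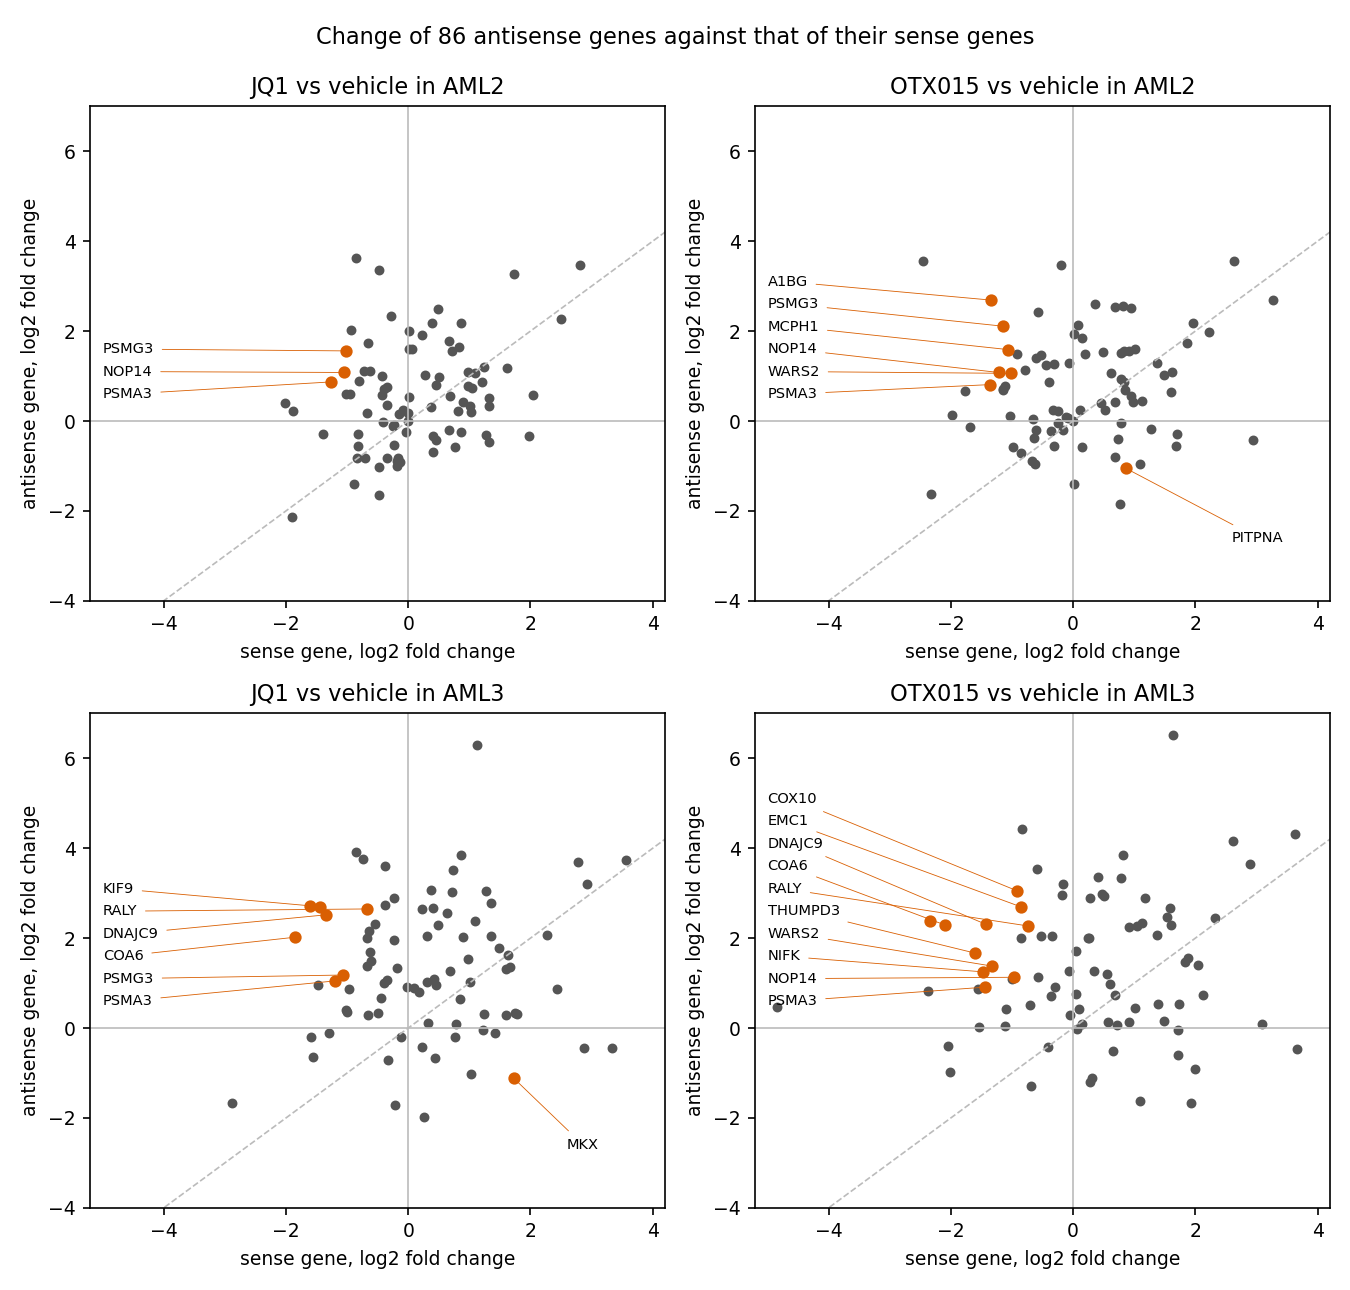
Log2 fold change of 86 antisense genes (vertical) against that of their sense genes (horizontal) for each compound and line; the dashed line marks equal change. Orange points, most with the sense gene named, are pairs called in opposite directions, 3 and 7 in AML2 and 8 and 11 in AML3 for JQ1 and OTX015, and most points in AML3 lie above the line, 61 of 86 in each panel.

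The clearest opposite pair was PSMA3-AS1 and PSMA3, a core subunit of the proteasome, called opposite ways in all 4 comparisons. The antisense gene stood at 32.9, 39.6 and 23 CPM in AML2 with vehicle, 57.1, 61.7 and 61.7 with JQ1 and 61.9, 53.2 and 59 with OTX015. PSMA3 stood at 308, 203 and 175, then 111, 96.1 and 77.6, and 77.1, 128 and 54.7. In both genes the treated libraries lay outside the range of the vehicle libraries. The antisense changes were 0.87 ± 0.24 (adjusted p = 0.0068) and 0.81 ± 0.25 (0.0103), against -1.26 ± 0.28 (0.00114) and -1.36 ± 0.29 (0.000469) for PSMA3. In AML3 the antisense changes were 1.05 ± 0.24 (0.000804) and 0.91 ± 0.24 (0.00296), against -1.19 ± 0.29 (0.00163) and -1.44 ± 0.3 (0.00029).

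COA6-AS1 shares its start region with COA6, a factor needed to assemble cytochrome c oxidase. In AML3 the antisense gene was at 1.76, 7.79 and 0 CPM with vehicle, 13.3, 14.8 and 14.4 with JQ1 and 16.4, 24.1 and 6.46 with OTX015. COA6 was at 147, 157 and 163, then 54.2, 47.6 and 21.6, and 48.1, 41.6 and 12.9. The JQ1 libraries lay above the vehicle libraries for COA6-AS1, while 1 OTX015 library lay within their range. It rose by 2.02 ± 0.55 (adjusted p = 0.00359) and 2.29 ± 0.54 (0.000963) while COA6 fell by 1.86 ± 0.3 (1.89e-05) and 2.09 ± 0.31 (4.8e-06). In AML2, COA6 fell by about as much, 1.89 ± 0.28 and 1.98 ± 0.28, whereas COA6-AS1 was at 12.2 ± 3.46, 14.6 ± 4.59 and 13.2 ± 2.89 CPM with changes of 0.23 ± 0.44 and 0.13 ± 0.45 that did not pass.

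Some of the other opposite pairs have sense genes of ribosome assembly, protein turnover or mitochondria, and others do not. How common such genes are among all sense genes tested was not counted. NOP14 and NIFK are nucleolar proteins, and NOP14-AS1 rose from 7.09 ± 0.924 to 15.4 ± 1.57 and 16.6 ± 5.91 CPM in AML2 while NOP14 fell from 107 ± 16.6 to 51.4 ± 4.97 and 46.3 ± 9.14. The NOP14-AS1 calls were weak (adjusted p = 0.0474 and 0.0442). The first was lost without any one of the 6 libraries (0.0667 to 0.145), and the second without any but replicate 2 of OTX015 (0.0707 to 0.16). In AML3 with OTX015 it rose by 1.13 ± 0.38 (0.0144), which was lost without replicate 3 of OTX015 (0.054) or of vehicle (0.0525). NIFK-AS1 rose with OTX015 in AML3, by 1.25 ± 0.48 (0.0284), lost without replicate 1 of OTX015 (0.0995) or replicate 2 of vehicle (0.148), where NIFK fell by 1.47 ± 0.24 (1.27e-05).

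PSMG3-AS1 faces the gene of a proteasome assembly chaperone. It went from 3.37, 4.34 and 5.11 CPM in AML2 with vehicle to 11.4, 10.6 and 17.6 with JQ1 and 14, 17.4 and 27.4 with OTX015, with no overlap, while PSMG3 fell from 82.4 ± 22.4 to 40.1 ± 4.65 and 37.9 ± 9.81. The OTX015 rise was 2.11 ± 0.54 (adjusted p = 0.00299). The JQ1 rise in AML2 (0.0358) was lost without any one of its 6 libraries (0.0512 to 0.104), and the JQ1 rise in AML3 (0.0349) without replicate 1 or 3 of JQ1 or replicate 1 or 2 of vehicle (0.0527 to 0.144). WARS2-AS1 faces the mitochondrial tryptophan tRNA synthetase gene WARS2. In AML3 it rose with OTX015 from 19.9, 23.4 and 17 to 60.1, 39.4 and 62.5 CPM, by 1.38 ± 0.24 (4.31e-05), and WARS2 fell by 1.33 ± 0.44 (0.0131, or 0.0813 without replicate 2 of OTX015). COX10-AS1 starts 1 base from COX10, which makes a heme group of cytochrome c oxidase, and in AML3 with OTX015 rose by 3.05 ± 0.37 (3.42e-07), where COX10 fell by 0.91 ± 0.31 (0.0163). That fall of COX10 was lost without replicate 2 of OTX015 (0.118) or of vehicle (0.0694).

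DNAJC9-AS1, RALY-AS1 and THUMPD3-AS1, whose sense genes have other functions, were also called opposite to them in AML3. DNAJC9 is a histone chaperone, and its antisense gene rose by 2.52 ± 0.63 (adjusted p = 0.00188) and 2.31 ± 0.66 (0.00485) as DNAJC9 fell by 1.34 ± 0.28 (0.00034) and 1.43 ± 0.29 (0.000202). RALY-AS1, opposite an RNA-binding protein gene, rose by 2.65 ± 0.53 (0.000236) and 2.27 ± 0.57 (0.00163). RALY fell by 0.68 ± 0.23 (0.0161) and 0.73 ± 0.23 (0.00954), calls that were lost without replicate 3 of JQ1 (0.0671), of vehicle (0.0604) or of OTX015 (0.0535). THUMPD3-AS1 rose with both compounds, from 17.7 ± 3.33 to 56.1 ± 2.01 and 55.1 ± 4.44 CPM, and THUMPD3, a tRNA methyltransferase gene, fell with OTX015 by 1.61 ± 0.38 (0.000993) and was not called with JQ1. Further pairs called opposite ways were KIF9 with JQ1 in AML3, EMC1 with OTX015 in AML3, and A1BG, MCPH1 and WARS2 with OTX015 in AML2. Each of these 5 lost 1 of its 2 calls without single libraries. The adjusted p rose to 0.054 to 0.139 for KIF9 without replicate 1 of JQ1 or replicate 1 or 3 of vehicle, and to 0.067 to 0.171 for EMC1 without replicate 2 or 3 of either group. In AML2 it rose to 0.0746 to 0.166 for A1BG without replicate 1 or 3 of OTX015 or replicate 1 or 2 of vehicle. For MCPH1-AS1 it was 0.0505 to 0.0895 without replicate 1 of OTX015 or replicate 1 or 2 of vehicle, and for WARS2 0.0537 to 0.188 without replicate 1 of OTX015 or any vehicle library.

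The reverse order, antisense down and sense up, was called in 2 cases. MKX-AS1 fell with JQ1 in AML3, from 19.2 ± 3.99 to 8.89, 6.34 and 12.6 CPM, while MKX rose from 48.2 ± 8.15 to 165, 150 and 170. MKX rose by 1.73 ± 0.21 (adjusted p = 2.11e-06). The MKX-AS1 fall of 1.12 ± 0.44 (0.0369) was lost without replicate 1 or 2 of JQ1 (0.091 and 0.139) or replicate 1 or 3 of vehicle (0.17 and 0.0533), and with OTX015 its change of -0.61 ± 0.42 did not pass. PITPNA-AS1 fell with OTX015 in AML2 by 1.05 ± 0.33 (0.0124), lost without replicate 1 (0.0732) or 2 (0.0543) of OTX015, where PITPNA, a phosphatidylinositol transfer protein gene, rose by 0.86 ± 0.21 (0.00187).

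CDKN2B-AS1 did not pass the test where CDKN2B did. It was at 40 ± 6.24 CPM in AML2 with vehicle, 31.8 ± 3.59 with JQ1 and 30 ± 4.87 with OTX015, and in AML3 at 41.8 ± 4.34, 30.6 ± 3.1 and 32.2 ± 9.41, with no change that passed. CDKN2B, the gene of the cell cycle inhibitor p15, had 3 tags in each vehicle group. It rose to 25 tags with JQ1 in AML3, a ratio of 11.3 (95% counting interval 3.45 to 58.6), and to 27 with OTX015, a ratio of 14 (4.31 to 72.1). In AML2 it had 9 tags with JQ1, which did not pass, and 16 with OTX015, a ratio of 8.6 (2.46 to 46). The adjusted p of that rise, 0.00966, became 0.0781 without replicate 3 of OTX015 and 0.0735 without replicate 2 of vehicle.

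**Figure D5:**
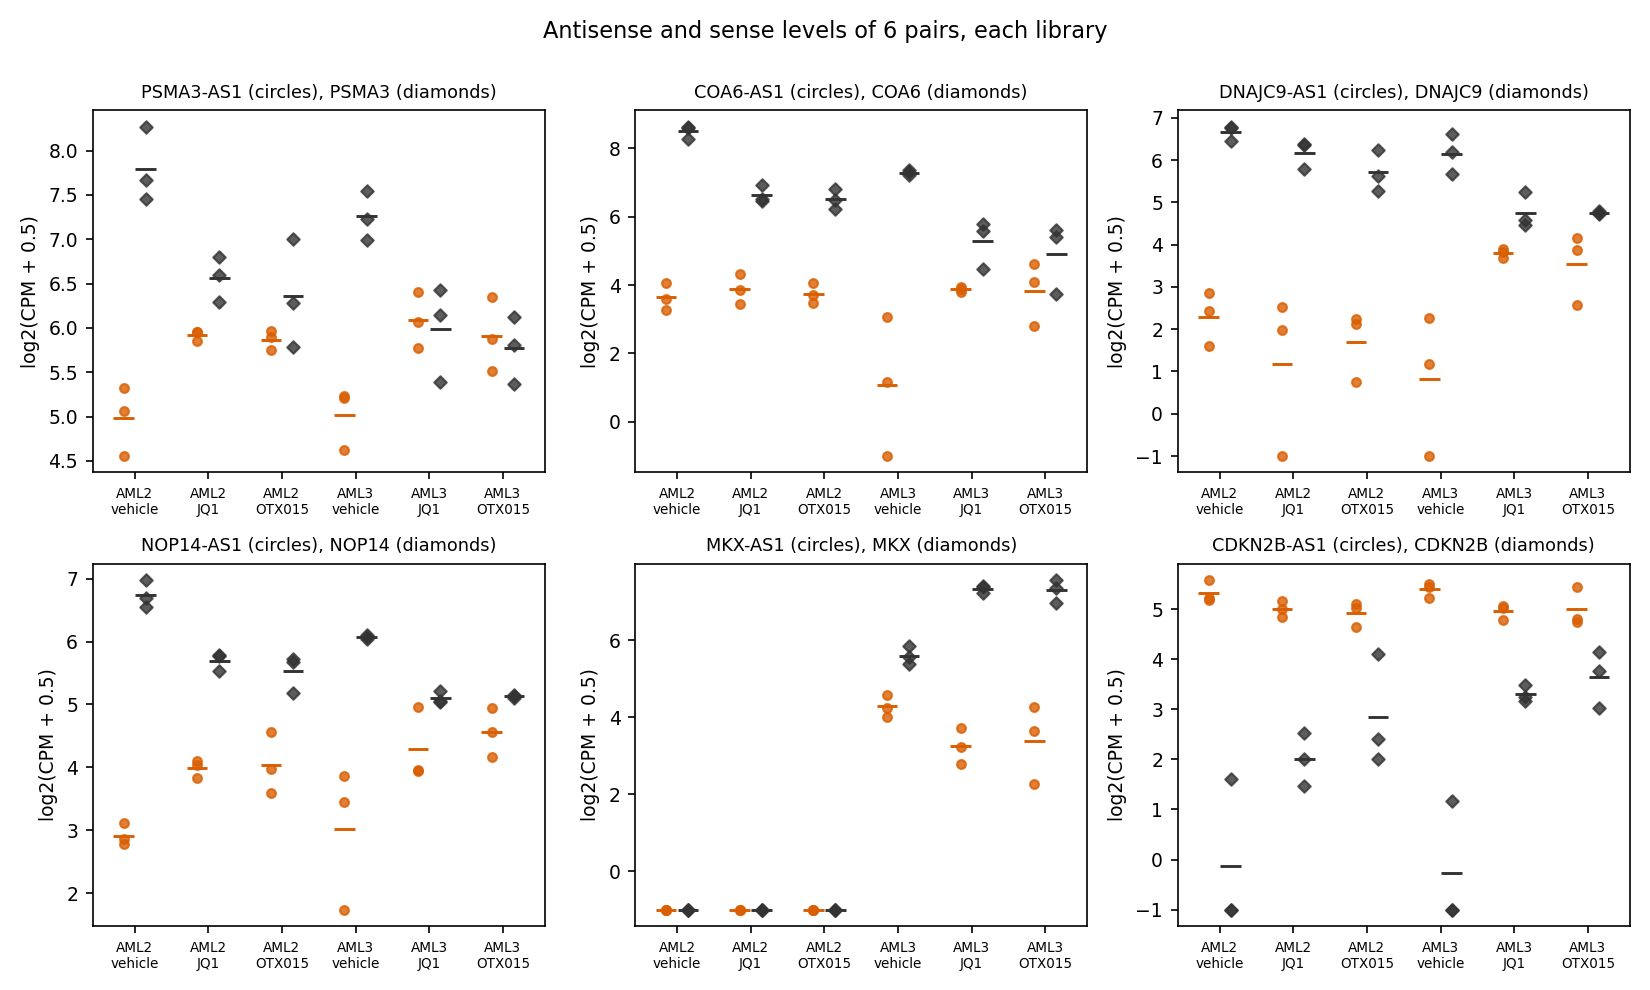
Level, as log2 of CPM plus 0.5, of the antisense gene (orange circles) and the sense gene (dark diamonds) of 6 pairs in each library, with group means as lines. PSMA3, COA6, DNAJC9 and NOP14 were lower with the compounds in AML3 and their antisense genes higher on the mean, MKX and MKX-AS1 had 0 tags in AML2, and CDKN2B rose while CDKN2B-AS1 did not pass the test.

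For 47 named pairs the ratio of antisense to sense tags within a library, which apart from a pseudocount of 0.5 CPM does not depend on depth scaling, was compared between the 3 vehicle and the 6 compound libraries of a line. The values are descriptions. Most pairs were named because the antisense gene changed in these same libraries, JQ1 and OTX015 libraries of the same number deviate together, and a ratio with few tags, such as that of SOCS2-AS1 in AML3, is set by the pseudocount. For PSMA3-AS1 the mean log2 ratio went from -2.82 ± 0.44 (SD) to -0.56 ± 0.49 in AML2 and from -2.24 ± 0.61 to 0.12 ± 0.29 in AML3. For COA6-AS1 in AML3 it went from -6.21 ± 2.06 to -1.24 ± 0.56, and for CDKN2B-AS1 it went down, from 5.67 ± 1.16 to 1.5 ± 0.33 there. The size of these last 2 changes depends on the pseudocount. With 0.1 and 2 CPM the change was 5.83 and 4.07 for COA6-AS1 in AML3, and -5.76 and -2.76 for CDKN2B-AS1.

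OTX015 and JQ1 were not told apart by any antisense gene. In edgeR's test of 1 against the other, 0 of the 115 were called in AML2 and 0 in AML3, as were 0% of all genes, and 4 in each line had an unadjusted p under 0.05. DESeq2 also called 0 in each. The precision was limited. The 95% intervals of the differences reached a median of 1 to each side of the estimate on the log2 scale in AML2 and 0.88 in AML3, and among genes with tags they lay wholly within 1 of 0 for 27 of 113 in AML2 and 35 of 114 in AML3. For SLC9A3-AS1 the difference was 0.28 (interval -0.5 to 1.07) in AML2 and 0.11 (-0.59 to 0.82) in AML3. For PSMA3-AS1 it was -0.06 (-0.55 to 0.44) and -0.14 (-0.62 to 0.34).

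The antisense genes with an unadjusted p under 0.05 were not called after adjustment. In AML2 the largest such differences were those of TNK2-AS1 and ASH1L-AS1. TNK2-AS1, near the gene of the kinase ACK1, was at 20.5, 16.7 and 19.4 CPM with JQ1 in AML2 and at 11.7, 4.84 and 6.32 with OTX015, a difference of -1.28 (interval -2.3 to -0.27, adjusted p = 1). ASH1L-AS1, near a histone methyltransferase gene, was at 7.99, 2.64 and 3.53 with JQ1 and 10.5, 9.67 and 21.1 with OTX015, a difference of 1.4 (0.4 to 2.4, adjusted p = 1). In both genes the libraries of the 2 compounds did not overlap. In AML3 the largest was that of KIF9-AS1, with a mean of 14.9 CPM with JQ1 and 4.68 with OTX015, a difference of -1.88 (-3.33 to -0.43, adjusted p = 1). Doses and times are not given in the labels, so these are differences between 2 treatments as applied.

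Whether a compound acted differently in the 2 lines was tested as an interaction. The change with JQ1 was more positive in AML3 than in AML2 for 9 of the 115 antisense genes and more negative for 0, where 3.02% and 3.92% of all genes were called. With OTX015 it was more positive for 5 and more negative for 0, where 2.84% and 4.81% of all genes were called. The median interaction was 0.59 and 0.58, against 0.03 and 0.02 for all genes. The counts moved with single libraries. For JQ1 they were 4 without replicate 1 and 3 without replicate 2 of AML2 vehicle, and 5 without replicate 2 of AML2 JQ1. For OTX015 the count was 3 without replicate 2 of AML2 vehicle. With the replicate number as a block it was 9 for OTX015 and 12 for JQ1. With the libraries numbered 1 and 2 alone, 13 were more positive and 1 more negative for JQ1, and 7 and 1 for OTX015.

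ZFPM2-AS1 showed the largest interaction. It overlaps ZFPM2, the gene of a cofactor of GATA factors, which has no row here. In AML2 it was at 4.21, 6.51 and 6.39 CPM with vehicle, 1.14, 1.76 and 0 with JQ1 and 1.17, 2.9 and 2.11 with OTX015, and in AML3 at 1.17, 0 and 0, then 15.1, 11.6 and 9.02, and 22.9, 21.9 and 6.46. With OTX015 in AML2 it did not pass (-1.39 ± 0.69, adjusted p = 0.11). With JQ1 in AML2 it had 3 tags against 22, a ratio of 4.96 (95% counting interval 1.49 to 25.9), whose adjusted p of 0.0264 was lost without replicate 1 or 3 of JQ1 (0.0712 and 0.084) or replicate 2 of vehicle (0.0869). In AML3 it rose from 2 tags to 33 with JQ1, a ratio of 22.4 (5.73 to 193), and to 44 with OTX015, a ratio of 34.2 (8.93 to 291).

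COX10-AS1 and PAXIP1-AS1 were called for both compounds in the fit on all libraries. Of these calls, only that of PAXIP1-AS1 with OTX015 was followed without single libraries. COX10-AS1 was at 16.9, 24.4 and 8.94 CPM in AML2 with vehicle, 30.8, 25.6 and 26.5 with JQ1 and 32.7, 29 and 31.6 with OTX015, and in AML3 at 8.21, 4.33 and 7.09, then 38.2, 32.8 and 72.2, and 54.6, 40.5 and 79.7. In AML2 its changes of 0.61 ± 0.34 and 0.77 ± 0.34 did not pass, and in AML3 it rose by 2.74 ± 0.38 and 3.05 ± 0.37. PAXIP1-AS1, named after a gene of the DNA damage response, stayed at 8.83 ± 1.33, 8.99 ± 6.07 and 10.7 ± 2.59 CPM in AML2 and rose from 4.01 ± 2.67 to 22.7 ± 3.56 and 27.2 ± 4.48 in AML3. MEF2C-AS1 rose with JQ1 in AML3, from 2 tags to 20, a ratio of 13.6 (3.3 to 120), and was at 18.3 ± 11.6 CPM with vehicle and 13.8 ± 4.5 with JQ1 in AML2.

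SOCS2-AS1 was called in AML2 and not in AML3. In AML2 it rose from 18.5, 17.4 and 1.28 CPM to 50.2, 64.3 and 77.6 with JQ1 and 71.2, 81.3 and 96.9 with OTX015, without overlap, by 2.18 ± 0.36 (adjusted p = 5.76e-05) and 2.56 ± 0.36 (5.12e-06). SOCS2 rose by 0.87 ± 0.3 (0.0239) and 0.82 ± 0.3 (0.0299), the second being lost without replicate 1 (0.0783) or 2 (0.0812) of OTX015 or replicate 3 of vehicle (0.134). In AML3 the 9 libraries held 2 tags of SOCS2-AS1 in all, too few to measure a change, and its interactions did not pass (-3.84 ± 2.72 for JQ1, adjusted p = 0.457).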

How the data were processed

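The counts are whole tag numbers per gene symbol in 18 libraries, deposited by the authors without normalization. STAR and hg38 are named in the submitters' processing notes, whereas the promoters used for the strand check are named with hg19 coordinates. The tool that counted tags per gene is not named in the sources used here. Whether replicates were separate cultures is not stated, so p-values measure the spread between these libraries, which may be technical.

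The main test was that of edgeR 4.0.16, run in R 4.3.3 (quasi-likelihood, TMM, filterByExpr over 6 groups, 1 mean per group, 12 residual degrees of freedom). Benjamini-Hochberg adjustment ran over all 10031 genes tested, with a threshold of 0.05, two-sided. The SE is the size of the log2 change over the square root of the F statistic. DESeq2 1.42.0 was an alternative, and the method was tested on simulated data. Exact permutation tests used scipy 1.17.1 and a pseudocount of 0.5 CPM.

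Same-numbered OTX015 and JQ1 libraries deviated together from their group means (correlations 0.121, 0.158 and 0.347 in AML2 and 0.374, 0.351 and 0.623 in AML3), and a fit with the replicate number as a block also called 0 genes there.

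Named genes are the 10 with most tags, up to 8 each way per line or compound comparison (called, no overlap between libraries, largest change) and up to 4 each way for the compound difference and the interactions. Added to these were members called opposite to their sense gene, members with no tag in 1 line and at least 30 in the other, and the sense genes. ASH1L-AS1, PCBP1-AS1 and the compound differences of TNK2-AS1 and KIF9-AS1 were named after their values between the compounds were seen. The values of 1 pair are not reported here. The members and lists were chosen with earlier results of these data known. The deposited promoter table served the strand check alone, and the enhancer table was not used.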

Additional observations from a re-analysis of the deposited data

Results flagged for a closer look

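The change with a compound differed between AML3 and AML2 for the following antisense genes, by the interaction test in edgeR with adjustment over all genes. All differences are log2 change in AML3 minus log2 change in AML2. For JQ1 they were 6.38 for ZFPM2-AS1, 3.95 for MEF2C-AS1, 3.53 for DNAJC9-AS1, 3.25 for HDAC4-AS1, 2.78 for TRAF3IP2-AS1, 2.68 for SAP30L-AS1, 2.67 for PAXIP1-AS1, 2.13 for COX10-AS1 and 1.66 for TMEM44-AS1. For OTX015 they were 6.16 for ZFPM2-AS1, 3.78 for ZBTB11-AS1, 2.97 for AZIN1-AS1, 2.67 for PAXIP1-AS1 and 2.27 for COX10-AS1. ZFPM2-AS1, MEF2C-AS1 and DNAJC9-AS1 rest on few tags, since ZFPM2-AS1 and MEF2C-AS1 had 2 tags and DNAJC9-AS1 had 8 in the AML3 vehicle group.

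The adjusted p of HDAC4-AS1 (0.0387) rose to between 0.0532 and 0.135 when any one of 8 of the 12 libraries compared was left out. That of AZIN1-AS1 (0.0327) rose to between 0.0531 and 0.136 for 7 of 12, and that of DNAJC9-AS1 (0.0277) to between 0.0502 and 0.0955 for 5 of 12. ZBTB11-AS1 (0.0158) lost its call without replicate 3 of AML2 vehicle (0.0524) or replicate 1 of AML3 vehicle (0.0521). The calls of TRAF3IP2-AS1, SAP30L-AS1, TMEM44-AS1 and COX10-AS1, and that of PAXIP1-AS1 with JQ1, were not followed in this way. They are not shown to hold without single libraries.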

How the results depend on the processing

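Of 255 single results on named genes, 184 were called. Over 3144 alternatives run on them, 2935 kept their side of the threshold, with the same direction where called. Of the rest, 189 lost the call, 20 gained one and 0 reversed a called direction. Where neither fit gave a call, the direction was not compared. The total of calls for each compound against vehicle moved by less than 1.5 times under every alternative run, but the few lower calls did not keep to this. With no filter they went from 10 to 19 and 9 to 20 in AML2 and from 6 to 11 and 5 to 9 in AML3 for JQ1 and OTX015. With no filter on low counts, 50 antisense genes were called between the lines (24 higher, 26 lower) in place of 32, since 83 more were tested. With the libraries numbered 1 and 2 alone, 1 gene, PCBP1-AS1, was called between OTX015 and JQ1 in AML2, and the interactions gave 14 (13 higher, 1 lower) for JQ1 and 8 (7 higher, 1 lower) for OTX015; the cause was not tested. Leaving out 1 library at a time gave 3 to 9 calls for the JQ1 interaction and 3 to 7 for the OTX015 interaction. The ratio of antisense to sense tags is a description, since most pairs were named for a change in these same libraries. An exact permutation p under 0.05 was reached by 22 pairs in AML2 and 40 in AML3, counts that this choice of pairs raises. It was reached by 0 pairs without any one replicate number, where the exact permutation test of 2 against 4 libraries cannot go below p = 0.133.

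With the replicate number as a block (replicate block), the OTX015 interaction gave 9 calls in place of 5, and no other count moved by 1.5 times. Vehicle and compound libraries of the same number correlated weakly within a line (-0.053 to 0.164, most above 0). Such values cannot settle whether the numbers mark shared runs, which the labels do not say. JQ1 libraries of the same number correlated across the lines at 0.123, 0.106 and 0.246, and OTX015 libraries at 0.073, 0.16 and 0.231. Scaling by library totals shifted the median change of all genes to 0.44 and 0.51 in AML3 and 0.16 and 0.21 in AML2 for JQ1 and OTX015. With that scaling 68 and 66 antisense genes were higher and 4 and 1 lower in AML3. A change in a gene with few tags could not be detected at these depths unless it was large.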
